A study of Rattus norvegicus with 6 samples.

Results

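The genes Tfrc (ENSRNOG00000001766), Fth1 (ENSRNOG00000022619) and Hmox1 (ENSRNOG00000014117) of iron handling were followed in rat tendon after injury, chosen by their Ensembl gene IDs. All 3 were found among the 22250 gene IDs of the count table, and all 3 passed the filter on low counts that left 15122 genes for testing. Messenger RNA was sequenced from the tendons of Sprague-Dawley rats taken 14 days after surgery that cut across and stitched the achilles tendon; the labels enter these 14 days as an age. The injury model group (3 libraries) carried the injury and no drug. The celecoxib + lactoferrin treatment group (3 libraries) carried the same injury and received daily local injections of celecoxib, an inhibitor of cyclooxygenase-2, together with lactoferrin, an iron-binding glycoprotein of milk. Both agents were given to every treated rat, so what either does alone cannot be told apart here, and the same holds for the injections themselves, since no vehicle injection is described for the injury model group. The methods describe 3 rats killed per group on that day, and no source says that each library is 1 rat. The p-values therefore set the group difference against the spread between libraries, which is not known to be that between rats.

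Cells take up iron by binding iron-loaded transferrin to the transferrin receptor, which Tfrc encodes, and carrying the complex inward. Iron that is not used is held in ferritin, a hollow shell built of heavy and light chains, and Fth1 encodes the heavy chain, which oxidises iron as it enters. Heme oxygenase 1, the product of Hmox1, opens the heme ring and frees its iron, and it is a classical target of oxidative stress signalling through Nrf2. In cells short of iron, iron regulatory proteins bind stem-loops in both the receptor and the ferritin messages: the receptor message is kept from decay, while the ferritin message is kept from being translated. An mRNA count can therefore register the control of Tfrc by this route, but not that of ferritin protein. Tfrc is also known as a target of the hypoxia-inducible factors. The treatment contains an iron-binding protein, and the comparison asks how the messages for uptake, storage and release of iron stood with and without it.

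The stretch of DNA just before the Tfrc start site is shown because, of the 3 genes, only 1 (Tfrc) was found in the RefSeq promoter table. That table uses the GRCr8 build, whereas the reads were aligned to an earlier rat build. Whether this stretch bears on the group difference of Tfrc was not tested. The 250 bases before the Tfrc start lie at chr11:81690319-81690568 on the minus strand, 64.8% of them G or C. Capitals mark the letters ACGTG, the core of the hypoxia response element.

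Tfrc promoter: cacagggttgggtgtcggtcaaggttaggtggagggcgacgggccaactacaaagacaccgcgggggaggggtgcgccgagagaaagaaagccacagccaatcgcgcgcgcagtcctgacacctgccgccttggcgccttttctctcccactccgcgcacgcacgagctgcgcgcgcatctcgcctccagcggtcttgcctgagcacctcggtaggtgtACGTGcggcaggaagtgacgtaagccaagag

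On both strands, ACGTG occurred 1 time in these 250 bases, beginning 31 bases before the start on the gene's own strand. Of 33469 promoter entries of the same length, 16.6% held it on either strand. The alternative core GCGTG also occurred 1 time, on the opposite strand, and 25.9% of the entries held it. The core of the cAMP response element, TGACGT, began 16 bases before the start, and 6.95% of the entries held that. The antioxidant response element core TGACNNNGC (10.1% of entries) and the GC box GGGCGG (30.5%) were not matched in this window. These are matches of letters, and binding was not measured.

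Library totals lay between 34546567 and 47181784 counts. The 3 deeper libraries were injury model replicates 1 and 2 with treated replicate 3, and the other 3 were shallower, so depth crosses the groups. Across all genes, each of the 3 treated libraries had its closest match in the injury model group. By Pearson's r of log2 CPM, taken across genes, which are not replicates, treated replicate 1 reached 0.926 with injury model replicate 3, against 0.896 and 0.903 within its own group. Treated replicate 2 reached 0.929 with injury model replicate 3, against 0.896 and 0.922 within its group. Treated replicate 3 reached 0.963 with injury model replicate 2, against 0.903 and 0.922 within its group. The reference table paired 0 of the table's IDs with a symbol. For that reason the labelled tissue was not checked against its markers, and the other 54 symbols of the iron handling list and the 35 marker symbols of tendon, blood, muscle, vessel, fat and immune cells were not analysed here.

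Among the 3 genes, the transferrin receptor message was lower in treated tendon by the unadjusted test alone, and ferritin heavy chain and heme oxygenase 1 showed no difference larger than the spread between libraries. None of the 3 had an adjusted p under 0.05, where 0.00661% of all genes tested (1 gene) had one in edgeR's quasi-likelihood test. At an unadjusted p under 0.05, 1 of the 3 (Tfrc) was called, against 2.61% of all genes tested (395) in either direction and 1.20% (182) in the lower direction. The 2.61% is below the share that a threshold of 0.05 would pass with no true difference in any gene. Of those 395 genes, 53.9% were higher in treated tendon after TMM scaling, and 71.1% of 401 were higher with scaling by library size alone. The larger part was lower with DESeq2 (45.7% of 578 higher), with a term for library depth (38.1% of 223 higher) and without injury model replicate 3 (37.6% of 473 higher). The same held without treated replicate 2 (47.8% of 414 higher) and, narrowly, without treated replicate 1 (49.8% of 285 higher). The background therefore has no stable direction. In 0 of the 3 genes were the groups fully separated, against 7.80% of all genes tested (1180).

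Tfrc, the gene of iron uptake, had 2296, 3365 and 2934 counts in injury model replicates 1, 2 and 3, which is 53.7, 70.0 and 87.0 CPM (the count scaled to library size, after TMM normalization). It had 1655, 1287 and 2836 counts in celecoxib + lactoferrin replicates 1, 2 and 3, which is 48.3, 37.3 and 56.3 CPM. Injury model replicate 3 was the highest and treated replicate 2 the lowest, and the groups overlapped at 1 point, where treated replicate 3 lay above injury model replicate 1. In 8 of the 9 pairs of 1 treated and 1 injury model library, the treated one was lower.

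The mean level of Tfrc was 70.2 ± 16.6 CPM (SD, n = 3) without treatment and 47.3 ± 9.53 CPM (SD, n = 3) with it. The log2 fold change was -0.57 with a standard error of 0.23, or 0.674-fold with a 95% interval from 0.465 to 0.976. The unadjusted p was 0.0394, and the p adjusted over all genes tested was 0.998 (edgeR). With DESeq2, the tool the study used, the log2 fold change was -0.58 and the unadjusted p was 0.0273, where 3.21% of 17992 genes had one under 0.05. In edgeR its unadjusted p ranked 275 of 15122, and the size of its fold change exceeded that of 87.2% of genes tested. The exact two-sided permutation test on log2 CPM gave p = 0.2, where 20 assignments of 6 libraries allow no p below 0.1. The study also picked Tfrc for its list of ferroptosis-related genes. It drew that list from genes called in this comparison but not in celecoxib alone against the injury model, a sequenced group not used here. The choice thus rested in part on these same libraries, so the direction of Tfrc here is not independent evidence. In bulk tendon, fewer cells that carry a message and less message per cell cannot be told apart.

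The call for Tfrc at the unadjusted threshold did not hold with every library left out. In edgeR the p was 0.155 without injury model replicate 3, 0.0782 without injury model replicate 2, 0.106 without treated replicate 2 and 0.0766 without treated replicate 1. It was 0.0169 without injury model replicate 1 and 0.026 without treated replicate 3. The log2 fold change lay between -0.73 and -0.39 in these 6 fits, below 0 in each. Without injury model replicate 2 it was -0.57, and without treated replicate 1 it was -0.59, so the difference did not shrink there. The standard errors in those fits were 0.278 and 0.283, against 0.231 with all libraries. Among the 3 deeper libraries, Tfrc stood at 61.9 CPM (mean of 2 libraries) in the injury model group and at 56.3 CPM (1 library) in the treated group, a ratio of 0.91. Among the 3 shallower ones it stood at 87.0 CPM (1 library) and 42.8 CPM (mean of 2 libraries), a ratio of 0.492. These subsets are too small for a test. With a term for library depth, the log2 fold change was -0.58 and the unadjusted p was 0.0536.

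**Figure D1:**
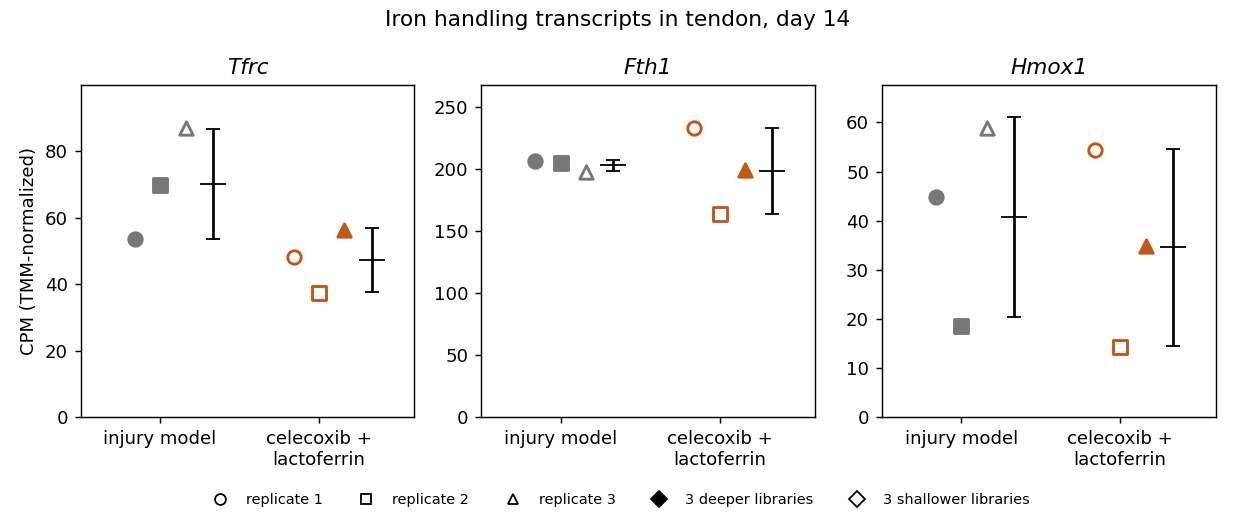
Level of Tfrc, Fth1 and Hmox1 in each of the 6 libraries, in CPM after TMM normalization, with the mean ± SD of each group of 3 libraries to its right. The shape of a point gives the replicate number, which is not known to pair libraries, and filled points are the 3 deeper libraries. In Tfrc the treated points lie from 37.3 to 56.3 CPM and the injury model points from 53.7 to 87.0, and in all 3 genes the groups overlap.

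Fth1, the gene of iron storage, had 8833, 9817 and 6670 counts in injury model replicates 1, 2 and 3, or 206.5, 204.3 and 197.7 CPM. It had 7961, 5642 and 10023 counts in celecoxib + lactoferrin replicates 1, 2 and 3, or 232.5, 163.5 and 198.9 CPM. The treated libraries lay on both sides of the injury model libraries, which were close together. The means were 203 ± 4.61 CPM (SD, n = 3) without treatment and 198 ± 34.5 CPM (SD, n = 3) with it. The coefficient of variation was 2.27% without treatment and 17.4% with it, a difference in spread that was not tested.

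The log2 fold change of Fth1 was -0.03 with a standard error of 0.18, or 0.978-fold with a 95% interval from 0.731 to 1.31 (edgeR, unadjusted p 0.862, adjusted p 0.998). The exact two-sided permutation test gave p = 0.8. Its sign was not stable, since the log2 fold change was 0.02 with scaling by library size alone, 0.06 with limma voom and 0.08 without treated replicate 2, which had the lowest level. The ratio of treated to injury model was 0.968 among the deeper libraries and 1 among the shallower ones. RefSeq lists 5 Fth1 pseudogenes in the rat, and how reads that match several copies were counted is not given in the sources used here, so the level of Fth1 is uncertain to that extent.

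Hmox1, the gene of heme breakdown, had 1922, 894 and 1985 counts in injury model replicates 1, 2 and 3, or 44.9, 18.6 and 58.8 CPM. It had 1866, 493 and 1762 counts in celecoxib + lactoferrin replicates 1, 2 and 3, or 54.5, 14.3 and 35.0 CPM. Each group held 1 library far below the other two, replicate 2 in both cases, and the groups overlapped over most of their range. The highest library stood 4.12 times above the lowest, against 2.33 times for Tfrc and 1.42 times for Fth1.

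The means of Hmox1 were 40.8 ± 20.4 CPM (SD, n = 3) without treatment and 34.6 ± 20.1 CPM (SD, n = 3) with it. The log2 fold change was -0.24 with a standard error of 0.60, or 0.848-fold with a 95% interval from 0.307 to 2.34 (edgeR, unadjusted p 0.705, adjusted p 0.998). The exact two-sided permutation test gave p = 0.6. The log2 fold change seen for Tfrc, -0.57, was smaller in size than this standard error of Hmox1. Whether a difference of that size could be detected here was not tested. The sign of the difference turned without injury model replicate 3 (0.12), without treated replicate 2 (0.13) and with limma voom (0.13). Among the deeper libraries the ratio of treated to injury model was 1.1, and among the shallower ones it was 0.585.

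**Figure D2:**
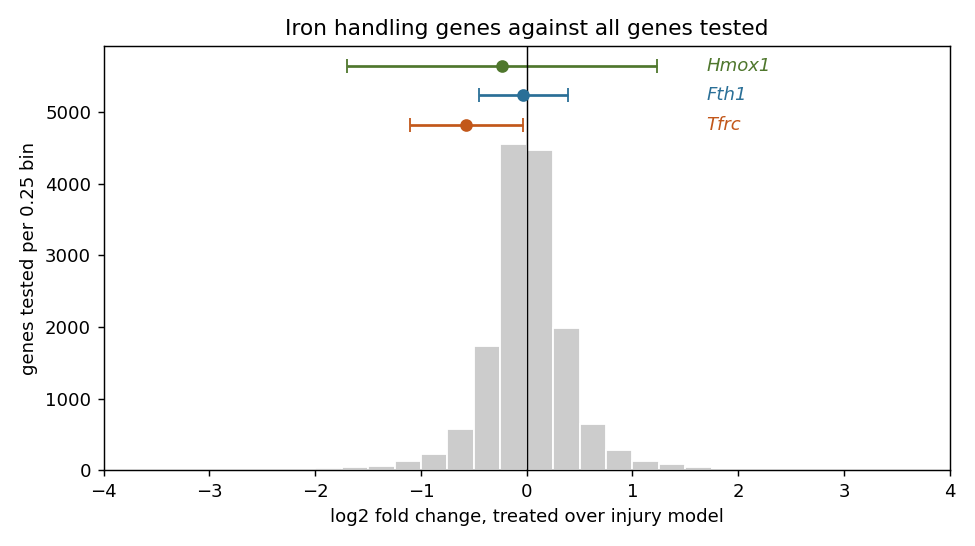
Grey bars count the 15122 genes tested by their log2 fold change of treated over injury model, in bins of 0.25, with values beyond 4 in either direction placed in the outermost bins. Coloured points with bars above them give the estimates of Tfrc, Fth1 and Hmox1 with their 95% intervals; that of Tfrc ends just below 0, from -1.10 to -0.04, and those of Fth1 and Hmox1 cross 0.

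Read sampling error was smaller than the spread between libraries. The counting error of a single library was between 1.72% and 2.79% for Tfrc, between 0.999% and 1.33% for Fth1 and between 2.24% and 4.5% for Hmox1, if reads are taken as independent. The spread between libraries of a group, as a coefficient of variation, was 23.7% and 20.1% for Tfrc and 50.1% and 58.1% for Hmox1 in the injury model and treated groups. For Fth1 it was 17.4% with treatment but 2.27% without, the value nearest to its counting error, which was 1.01% to 1.22% in those injury model libraries. The fitted biological coefficient of variation was 24.5% for Tfrc, 23.2% for Fth1 and 51.0% for Hmox1, against 39.3% for all genes together. These fitted values also draw on the other genes and are not each gene's own spread. For Tfrc and Fth1 they lay above the spread seen in both groups.

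**Figure D3:**
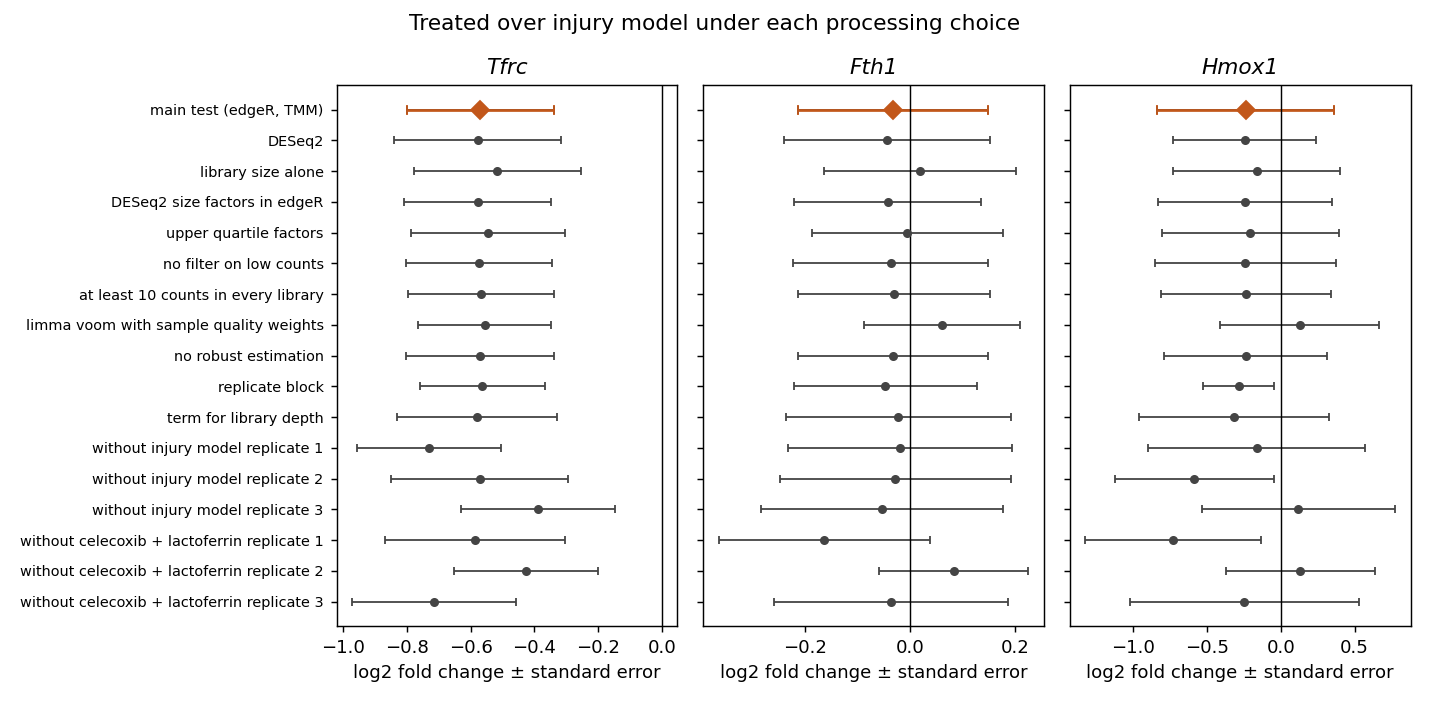
Log2 fold change ± standard error of treated over injury model for Tfrc, Fth1 and Hmox1, for edgeR with TMM (diamond) and for each of 16 other processing choices (points), with a separate horizontal scale for each gene. All 16 estimates for Tfrc lie below 0, between -0.73 and -0.39, whereas those for Fth1 (-0.16 to 0.08) and Hmox1 (-0.73 to 0.13) lie on both sides.

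A ratio of counts within a library does not depend on how libraries are scaled to each other. Tfrc counts came to 26.0%, 34.3% and 44.0% of Fth1 counts in injury model replicates 1, 2 and 3. They came to 20.8%, 22.8% and 28.3% in celecoxib + lactoferrin replicates 1, 2 and 3. The groups overlapped, as treated replicate 3 lay above injury model replicate 1. The mean log2 ratio differed by -0.52 between the groups, and by -0.71 to -0.33 with each library left out in turn. The ratio combines genes already described, so no test is given.

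**Figure D4:**
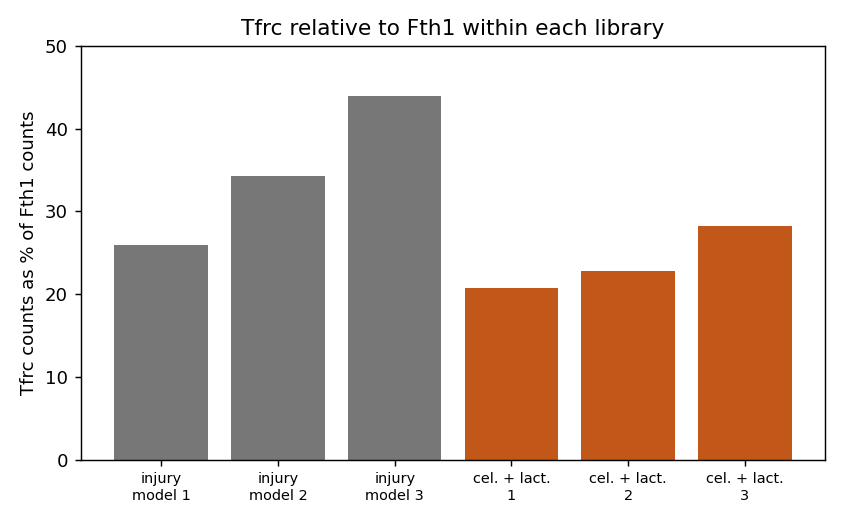
Tfrc counts as a percentage of Fth1 counts in each library, a ratio that scaling between libraries does not touch; it compares libraries and not the amounts of both messages, since gene length is not taken into account. Bars of the injury model group run from 26.0% to 44.0% and those of the celecoxib + lactoferrin group from 20.8% to 28.3%.

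The 3 genes did not follow one another closely across the 6 libraries. Treated replicate 2 had the lowest level of all 3 genes, while the highest library was injury model replicate 3 for Tfrc and Hmox1 and treated replicate 1 for Fth1. Over log2 CPM, Fth1 and Hmox1 had Pearson's r = 0.704 (exact permutation p = 0.0944, adjusted over 3 correlations 0.283) and Spearman's rho = 0.371 (exact permutation p = 0.497, adjusted 0.746). Without the 2 libraries farthest from the median of Fth1, r was -0.41 over 4 libraries. The r of deviations from the group means was 0.696 over all 6. Leaving out the most extreme libraries also narrows the range, so these values cannot decide whether the positive relation holds. Tfrc and Hmox1 had r = 0.441 (exact permutation p = 0.39, adjusted 0.525) and rho = 0.429 (p = 0.419 by the exact permutation test, adjusted 0.746). Tfrc and Fth1 had r = 0.347 (exact permutation p = 0.525, adjusted 0.525) and rho = -0.09 (p = 0.919 by the exact permutation test, adjusted 0.919). Without the 2 libraries farthest from the median of Tfrc, both of these coefficients r turned negative (-0.99 with Hmox1 and -0.64 with Fth1, over 4 libraries). The libraries belong to both treatment groups and share 1 scaling.

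Among the other 15119 genes tested, those most like each gene across the 6 libraries are known here by ID only. ENSRNOG00000045821 followed Tfrc with r = 0.994, ENSRNOG00000011283 followed Fth1 with r = 0.993 and ENSRNOG00000014297 followed Hmox1 with r = 0.997. The gene most like Fth1 was low, with a mean of 1.17 CPM in the injury model group and 1.12 CPM in the treated group. With so few libraries high coefficients are common: 140 genes had r over 0.9 with Tfrc, 270 with Fth1 and 308 with Hmox1, and the median over all genes tested was 179.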

How the data were processed

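Per the paper's methods, the authors used Illumina sequencing, discarded reads of low quality and aligned what remained with HISAT2 to the Ensembl rat genome Rnor_6.0, whereas the processing notes of the labels name a human build. The authors deposited raw counts per gene ID, with no normalization. The counting tool, its strand setting and its treatment of reads that match several genes are not given in the sources used here.

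Libraries were grouped by their titles, and all 6 columns were used. Columns were matched to titles by number, with those headed M read as the injury model. Those headed RS were read as celecoxib + lactoferrin from the rule that chose the genes and the paper's heatmap legend. The titles themselves do not use RS. The counts were fitted over all 15122 genes that passed filterByExpr with edgeR 4.0.16 in R 4.3.3 (TMM, robust quasi-likelihood test, Benjamini-Hochberg adjustment). Log2 CPM used a prior count of 2, and the count ratio a pseudocount of 0.5. DESeq2 1.42.0, limma 3.58.1, other scalings, filters and covariates, and each library left out were alternatives. The study's own threshold was an unadjusted p under 0.05 with DESeq2. The fit was also run on simulated counts. The differences set there were larger than that of any of the 3 genes, so that run did not bear on differences of their size. The 3 genes, named by the rule that chose them, and all lists were chosen with earlier results of these data known.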

Additional observations from a re-analysis of the deposited data

How the results depend on the processing

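Tfrc kept its direction in all 16 alternatives (log2 fold change -0.73 to -0.39). Its unadjusted p was under 0.05 in 9 of them, and its adjusted p-values ran from 0.822 to 1 (edgeR, DESeq2 and limma). Among the fits with all libraries, its unadjusted p was over 0.05 with scaling by library size alone (0.083), upper quartile factors (0.0541) and a term for library depth (0.0536). Fth1 turned sign with library size alone (0.019) and voom (0.061), and Hmox1 with voom (0.13). With each library left out, Fth1 ran from -0.16 to 0.08 and Hmox1 from -0.73 to 0.13. Over all alternatives neither had an unadjusted p under 0.05. The count ratio of Tfrc to Fth1 kept its direction.

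Of all genes, 1 had an adjusted p under 0.05 in edgeR. This was 26 with DESeq2 and 3 without a filter on low counts. It was 0 with at least 10 counts required in every library (407 at an unadjusted p under 0.05), 0 with voom (506) and 0 with the replicate block (326), and 1 to 9 with each library left out. The 395 genes at the unadjusted threshold became 223 with the depth term, and between 226 and 890 with each library left out, lowest without injury model replicate 1 and highest without treated replicate 3. The cause of these moves was not tested. With the replicate block, the log2 fold changes were -0.56 for Tfrc, -0.05 for Fth1 and -0.28 for Hmox1, with no call changed for these genes. The standard error of Hmox1 was 0.239 with the block and 0.598 without it, and its unadjusted p was 0.283 and 0.705 (edgeR). Deviations from the group mean had r across genes from -0.27 to 0.057 between same-numbered libraries, and from -0.31 to 0.3 between the others. Deviations within a group of 3 offset one another, so these values cannot decide whether the numbers pair libraries. Gene lists beyond the 3 genes were not run, since no IDs were paired with symbols. The lowest count of the 3 genes in any library was 493; the part of library depth in the Tfrc difference was not tested beyond the depth term.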
